A study of Macaca mulatta with 30 samples.

Results

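The pancreatic proteases are the digestive enzymes that acinar cells of the pancreas secrete to break down protein in the intestine. The set was fixed as a list of 8 gene symbols, and 7 of the 8 were found among the 21292 genes of the deposited table: PRSS1, CPA1, CPB1, CELA1, CELA3B, CTRC and CTRL. CELA2A was not found under that symbol and was not analysed here. The values come from RNA sequencing of 5 tissues of 6 rhesus macaques (Macaca mulatta), namely 3 salivary glands (parotid, submandibular, sublingual), pancreas and liver, with 1 library per tissue and animal and 30 libraries in all. Animals 1 to 4 were female and animals 5 and 6 male, and none is labelled as treated. Total RNA was taken from sections of flash frozen tissue. All salivary glands were from the left side except the parotid of animal 3, whose label carries an R in that place. The libraries are of whole tissue, so fewer cells of a type and less RNA per cell cannot be told apart.

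Acinar cells make these enzymes as inactive precursors (zymogens), pack them into granules and release them into the duct when food arrives. In the intestine, enteropeptidase (TMPRSS15) converts trypsinogen to trypsin, and trypsin then activates the chymotrypsins, elastases and carboxypeptidases. Inside the gland the trypsin inhibitor SPINK1 and the protease chymotrypsin C (CTRC), which can degrade trypsinogen, limit early activation. Trypsins, chymotrypsins and elastases are serine endopeptidases that cut within a protein chain, and the pancreatic carboxypeptidases are zinc enzymes that remove residues from its end.

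In the pancreas the 7 genes were among the most abundant transcripts. Values are TPM (relative transcript abundances), which are corrected for transcript length and scaled to the same total in every library. The 7 genes together took 27.3% of all TPM in the pancreas of animal 1, 25.9% in animal 2, 12.7% in animal 3, 0.290% in animal 4, 23.1% in animal 5 and 27.6% in animal 6. Animals 1, 2, 5 and 6 were alike in this share, animal 3 was lower, and animal 4 stood far apart. The summed level was 194755 ± 109010 TPM over the 6 pancreas libraries (SD) and 233125 ± 61741 TPM over the 5 libraries without animal 4.

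PRSS1, the cationic trypsinogen, was the most abundant of the set in 6 of 6 pancreas libraries. It measured 90202, 92828, 38260, 995, 84555 and 96195 TPM in animals 1 to 6. Its rank among all genes of the library was 1, 1, 3, 183, 2 and 1 in the same order. In 3 of the 6 libraries no other gene of any kind was higher.

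The carboxypeptidases came next in the digestive sequence. CPA1, which removes aromatic and aliphatic residues from the end of a chain, measured 46352, 28565, 13731, 359, 24950 and 36918 TPM in the pancreas of animals 1 to 6. CPB1, which removes basic residues such as those a trypsin cut leaves, measured 32560, 33305, 7485, 191, 11413 and 23872 TPM. CPB1 was above CPA1 in animal 2 and below it in the other 5 animals. The ratio of CPB1 to CPA1 was 0.702, 1.17, 0.545, 0.532, 0.457 and 0.647.

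Both measured elastases, which cut beside small residues, were transcribed in the pancreas. CELA3B measured 37590, 33765, 24048, 544, 46593 and 33044 TPM, and CELA1 measured 38363, 30925, 12318, 279, 18396 and 29360 TPM in animals 1 to 6. The human pancreas is known to lack CELA1 transcripts, although the pancreas of rodents and other mammals makes them. In the macaques CELA1 ranked between 7 and 12 among all genes in the 5 libraries other than animal 4. CELA1 slightly exceeded CELA3B in animal 1 and was lower in the other 5 animals.

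Of the chymotrypsin group, CTRC measured 13743, 27078, 24149, 392, 31839 and 34718 TPM in the pancreas of animals 1 to 6. CTRL, a chymotrypsin-like protease, measured 13742, 12512, 7288, 145, 13311 and 21650 TPM. CTRL was the lowest of the 7 in 5 of 6 pancreas libraries, and in animal 5 CPB1 was lower still. CTRC was the only one of the 7 whose lowest value outside animal 4 fell in animal 1 and not in animal 3. The number of these genes among the 15 most abundant transcripts was 7, 6, 5, 0, 5 and 7 in animals 1 to 6.

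**Figure D1:**
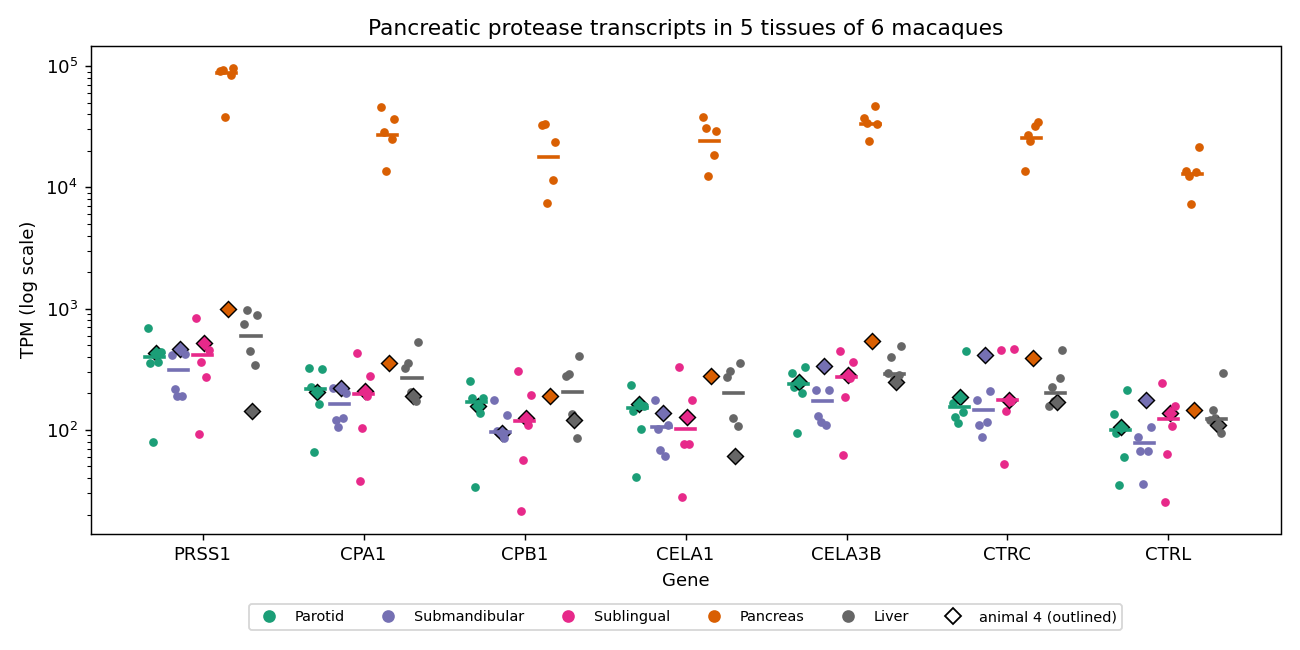
TPM on a log axis for each of the 7 protease genes, with 1 point per library coloured by tissue, a bar at the tissue median (n = 6 animals) and animal 4 drawn as an outlined diamond. 5 of 6 pancreas points lie far above every other point of the same gene, and the pancreas diamond of animal 4 lies among or just above the points of the other tissues.

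The pancreas library of animal 4 did not lack the proteases, but held them at about the level of the other tissues. The lowest of the other 5 pancreas libraries was above it by 35.1-fold for CTRC to 50.3-fold for CTRL. Against the highest of the other 4 tissues of the same animal, its pancreas was 1.92-fold higher for PRSS1, 1.71-fold for CELA1, 1.62-fold for CPA1, 1.60-fold for CELA3B and 1.22-fold for CPB1. CTRC was 0.939-fold and CTRL 0.821-fold that level, since the submandibular library of animal 4 gave 417 TPM of CTRC and 176 TPM of CTRL. The make-up of the set was not unusual in that pancreas: PRSS1 took 34.3% of the summed protease TPM, against a range of 30.1 to 36.6% over all 6 pancreas libraries.

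Markers of other cells moved with the low proteases of that library. The 6 adipose genes summed to 18013 TPM in that library and to 17.9 to 1700 TPM in the pancreas of the other 5 animals, with FABP4 (a fatty acid carrier of fat cells) at 11549 TPM and LEP (leptin) at 4160 TPM. The sum of 5 blood genes, globins and red cell genes, was 13942 TPM against 73.1 to 468 TPM, and 0 of the 5 were at 0. The sum of 6 islet genes was 450 TPM against 7205 to 132639 TPM, and the sum of 4 duct genes was 1.29 TPM against 14.4 to 26.8 TPM. The 10 other acinar secretory genes summed to 2215 TPM against 101353 to 200348 TPM. Adipose genes were also high in the submandibular library of animal 4, at 7840 TPM. The islet gene PPY, at 11.8 TPM against 3.05 to 14.7 TPM, and the duct gene MUC6, at 0.0737 TPM against 0.0200 to 0.107 TPM, were not low. The summed acinar, islet and duct levels were thus low in this library while the adipose and blood sums were high, and the part these play in the protease values was not tested.

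The pancreas of animal 3 had the second lowest protease sum, and its islet sum was the highest, although PPY was higher in animal 2. Its adipose sum was 1700 TPM and its blood sum 468 TPM, against 17.9 to 121 TPM and 73.1 to 194 TPM in animals 1, 2, 5 and 6, and their part in the lower proteases was not tested. INS, the insulin gene, measured 127239 TPM there against 408 to 11444 TPM in the other 5 pancreas libraries. Because TPM are shares of a fixed total, one abundant gene lowers all others. With INS taken out of the total, the proteases of animal 3 made up 14.6% of the pancreas library in place of 12.7%, still below the 23.4 to 27.8% of animals 1, 2, 5 and 6 computed the same way.

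**Figure D2:**
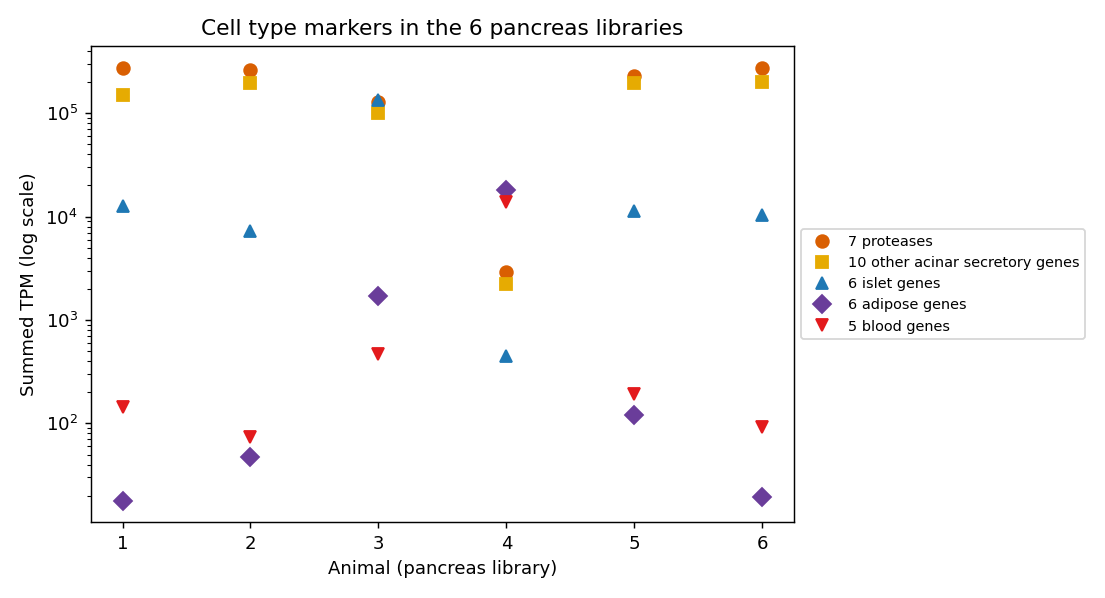
Summed TPM on a log axis in the 6 pancreas libraries, 1 column of points per animal, for the 7 proteases and for lists of other acinar secretory, islet, adipose and blood genes. The proteases and the other acinar genes drop in animal 4 to 2903 and 2215 TPM while the adipose and blood sums rise to 18013 and 13942 TPM, and in animal 3 the islet sum reaches 132639 TPM.

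The proportions of the 7 enzymes differed between animals in ways that the total did not. Over the 6 pancreas libraries PRSS1 took 34.1% ± 2.33 (SD) of the summed protease TPM, CELA3B 16.1% ± 3.55, CPA1 12.6% ± 2.41, CTRC 12.4% ± 4.57, CELA1 10.7% ± 2.13, CPB1 8.47% ± 3.29 and CTRL 5.70% ± 1.13. CELA3B, CPA1, CTRC and CELA1 lay within 1 SD of their neighbours in that order. CTRC had the widest spread, from 5.04% in animal 1 to 19.0% in animal 3. The ratio of CTRC to PRSS1 was 0.152, 0.292, 0.631, 0.394, 0.377 and 0.361 in the pancreas of animals 1 to 6.

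Over the 6 pancreas libraries the correlation of log2(TPM + 1) between pairs of the 7 genes had a median of 0.983, but these share animal 4. Over the 5 libraries without it the median of the 21 pairs was 0.630, from -0.352 for CTRC with CELA1 to 0.979 for CELA1 with CPB1. The values of these 5 libraries share a fixed total and are too few for more than a description.

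**Figure D3:**
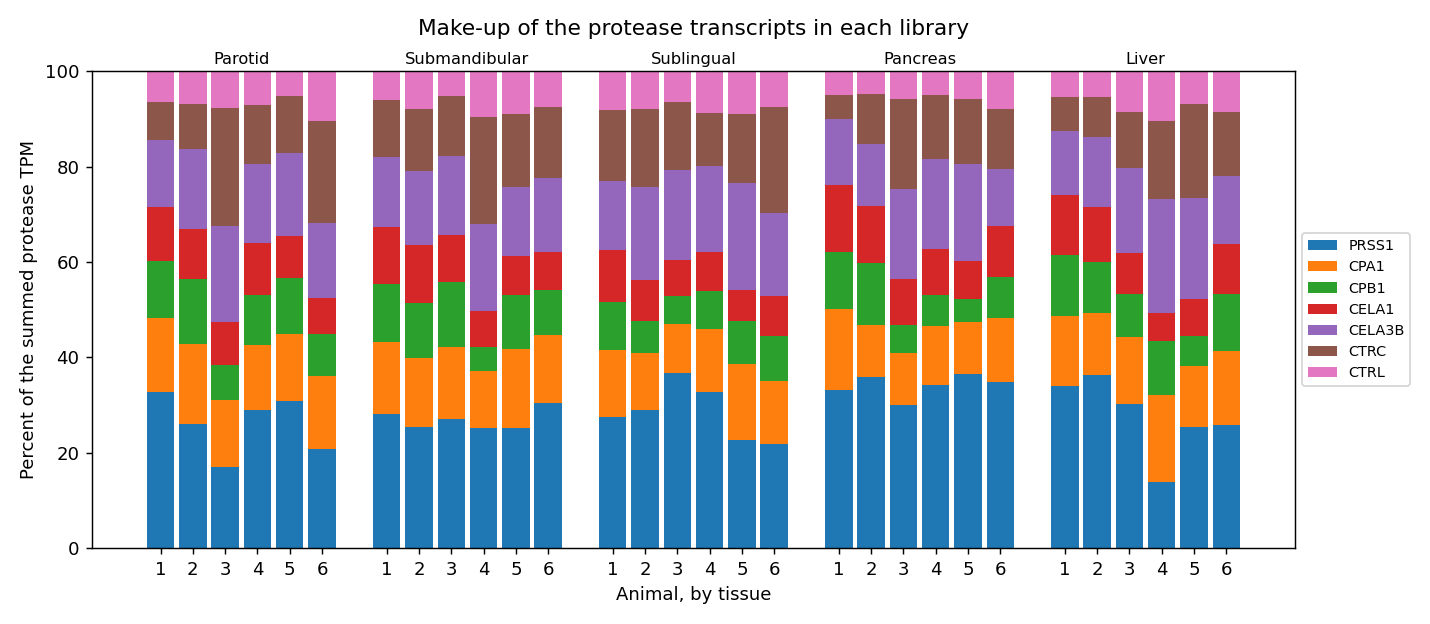
Stacked bars of the percentage of the summed protease TPM taken by each of the 7 genes, 1 bar per library, grouped by tissue with animals 1 to 6 from left to right. PRSS1 takes 30.1 to 36.6% in every pancreas bar, and the CTRC segment varies from 5.04% in animal 1 to 19.0% in animal 3.

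All 7 proteases were lower in each salivary gland than in the pancreas and higher in the pancreas than in the liver. Differences were tested with limma, a linear model fitted to log2(TPM + 1) of 13550 genes in all 30 libraries with tissue and animal as terms, and p-values were adjusted over all genes by the Benjamini-Hochberg method with a threshold of 0.05. The 7 of 7 called lower in parotid compare with 13.6% of all genes tested, the 7 of 7 lower in submandibular gland with 7.46%, the 7 of 7 lower in sublingual gland with 3.51%, and the 7 of 7 higher in pancreas than in liver with 6.76%. The median log2 difference of the 7 was -6.16 for parotid, -6.40 for submandibular and -6.36 for sublingual gland relative to pancreas, and pancreas relative to liver gave 5.74. Over all genes tested the medians of those comparisons were -0.484, -0.325, 0.231 and -0.36. The 4 comparisons share the pancreas libraries.

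PRSS1 had the largest difference in 3 of the 4, parotid, submandibular and liver. In parotid its TPM ran from 78.7 through a median of 397 to 686, and the log2 difference from pancreas was -6.80 ± 0.73 (SE, adjusted p = 3.55e-07, limma). In submandibular gland PRSS1 ran from 189 through 314 to 466, with a difference of -6.98 ± 0.73 (adjusted p = 2.72e-07, limma). In liver it ran from 144 through 595 to 976, and pancreas was higher by 6.23 ± 0.73 (adjusted p = 1.25e-07, limma). In sublingual gland it ran from 92.7 through 411 to 842, with a difference of -6.72 ± 0.73 (adjusted p = 2.28e-07, limma), and there CELA1 had the largest, -6.77 ± 0.71 (adjusted p = 1.33e-07, limma). No library outside the pancreas reached the 995 TPM of PRSS1 in the pancreas of animal 4.

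The carboxypeptidases were likewise lower outside the pancreas, with estimates closer to 0 than those of PRSS1 in each comparison, a gap that was not tested. CPA1 ran from 65.4 through a median of 217 to 321 TPM in parotid, from 105 through 164 to 222 in submandibular gland, from 37.9 through 199 to 431 in sublingual gland and from 173 through 266 to 529 in liver. CPB1 ran from 34.0 through 169 to 251 TPM in parotid, from 85.2 through 96.4 to 177 in submandibular gland, from 21.2 through 118 to 307 in sublingual gland and from 85.3 through 207 to 406 in liver. The 359 TPM of CPA1 and 191 TPM of CPB1 in the pancreas of animal 4 lay inside the liver and sublingual ranges. Against pancreas the log2 differences of CPA1 were -6.12, -6.40 and -6.36 in parotid, submandibular and sublingual gland, and those of CPB1 were -5.99, -6.29 and -6.42.

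The elastases were lower outside the pancreas too. CELA1 ran from 40.8 through a median of 150 to 233 TPM in parotid, from 61.5 through 106 to 176 in submandibular gland, from 27.8 through 103 to 331 in sublingual gland and from 60.7 through 200 to 356 in liver. CELA3B ran from 93.9 through 237 to 329 TPM in parotid, from 110 through 172 to 339 in submandibular gland, from 62.2 through 275 to 444 in sublingual gland and from 249 through 290 to 490 in liver. In every tissue the median of CELA3B exceeded that of CELA1. Pancreas exceeded liver by 6.05 ± 0.71 for CELA1 (SE, adjusted p = 1.14e-07, limma) and by 5.74 ± 0.68 for CELA3B (adjusted p = 1.31e-07, limma) on the log2 scale.

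CTRC ran from 114 through a median of 153 to 447 TPM in parotid, from 87.8 through 147 to 417 in submandibular gland, from 51.9 through 176 to 463 in sublingual gland and from 156 through 200 to 455 in liver. CTRL had the lowest median of the 7 in every tissue except sublingual gland, where those of CELA1 and CPB1 were lower. It ran from 25.3 through 122 to 246 TPM in sublingual gland and from 94.0 through 122 to 295 in liver. Animal 6 had the highest CTRC of all 6 animals in parotid, sublingual gland, pancreas and liver, but not in submandibular gland, where animal 4 did. CTRL had the smallest pancreas to liver difference of the 7, 5.47 ± 0.73 (SE, adjusted p = 1.15e-06, limma).

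The size of these differences depended on the pancreas of animal 4. Without that 1 library the median log2 difference of the 7 was -7.21 for parotid, -7.47 for submandibular and -7.43 for sublingual gland relative to pancreas, and pancreas relative to liver gave 6.79, with 7 of 7 called in each. Without all libraries of animal 2, whose sublingual gland held the lowest protease values, the sublingual median was -5.66, also with 7 of 7 called. The libraries of pancreas and parotid did not overlap for 4 of the 7 genes (11.6% of all genes), those of pancreas and submandibular gland for 5 of 7 (2.89%), those of pancreas and sublingual gland for 2 of 7 (3.9%) and those of pancreas and liver for 2 of 7 (15.6%). Without the pancreas of animal 4 all 7 were free of overlap in each comparison, where 14.5%, 6.7%, 11.1% and 29.4% of all genes were.

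Within animals, an exact permutation test that flips the signs of the 6 differences (two-sided), whose smallest possible p-value is 0.03125, gave that value for 7 of 7 genes in parotid against pancreas, sublingual gland against pancreas and pancreas against liver. In submandibular gland against pancreas it did so for 5 of 7, and CTRC and CTRL had an exact p = 0.0625 because animal 4 went the other way. Over the 70 tests of 7 genes in 10 tissue pairs, 28 had an exact p-value under 0.05 and 0 remained after Benjamini-Hochberg adjustment, the smallest adjusted value being 0.0781. With trimmed-mean scaling of the libraries the exact p-value was 0.0625 for 7 of 7 genes in parotid against pancreas, and 20 of the 70 were under 0.05.

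Outside the pancreas the proteases were measured in every library, and the fit of all 30 libraries called no difference between these tissues. The summed level was 2029 ± 909 TPM in liver (SD, n = 6), 1540 ± 950 in sublingual gland, 1443 ± 612 in parotid and 1169 ± 469 in submandibular gland. These means lay within 1 SD of their neighbours in that order, and with trimmed-mean scaling parotid was the highest of the 4, at 2203 TPM. By limma 0 of 7 genes were called in parotid against liver, submandibular gland against liver and sublingual gland against liver, where 58%, 50.7% and 31.5% of all genes were called in either direction. Between glands 0 of 7 were called in parotid against submandibular gland, parotid against sublingual gland and submandibular against sublingual gland, where 0.347%, 41.5% and 27.9% of all genes were called. In each of these 6 comparisons 0 of 7 had an unadjusted limma p-value under 0.05 either. These results do not show that the tissues are alike, since the SE of a difference was between 0.68 and 0.73 on the log2 scale. That SE pools the spread of all 5 tissues, with the outlying pancreas of animal 4 among them. Without that library the SE for CELA3B in submandibular gland against liver was 0.34. CELA3B was then called there, with a difference of -0.89 (adjusted p = 0.0306, limma).

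The estimates for parotid against liver ran from -0.57 for PRSS1 to -0.36 for CTRC on the log2 scale. For submandibular gland against liver they ran from -0.89 for CELA3B to -0.48 for CTRC. With unadjusted exact sign-flip tests, CELA3B was lower in parotid than in liver in 6 of 6 animals (exact p = 0.03125, a difference of -0.56), and CPB1 was lower in submandibular gland than in liver in 6 of 6 (exact p = 0.03125, a difference of -0.78). Neither passed after adjustment over the 70 tests. The direction of the glands against liver depended on scaling: with trimmed-mean scaling of the libraries, the parotid estimates lay between 0.64 and 0.86 and the submandibular estimates between 0.12 and 0.53, and with quantile normalisation they lay between 1.24 and 1.52 and between 0.73 and 1.15, with 0 of 7 called in each.

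Relative to the pancreas, the 7 genes stood at a narrow band of levels in each other tissue. The tissue median as a percentage of the pancreas median ran from 0.454% for PRSS1 to 0.958% for CPB1 in parotid, from 0.359% to 0.612% in submandibular gland, from 0.430% to 0.946% in sublingual gland and from 0.681% to 1.17% in liver. The medians over the 7 genes were 0.710%, 0.547%, 0.688% and 0.867%. PRSS1, the highest in pancreas, also ranked first of the 7 in 6 of 6 submandibular, 5 of 6 sublingual, 5 of 6 liver and 4 of 6 parotid libraries. CTRC ranked first in the parotid of animals 3 and 6 and in the sublingual gland of animal 6, and CELA3B in the liver of animal 4.

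Other genes with a known site were set against the median of that tissue in the same way, where that median was at least 100 TPM. For 8 other acinar secretory genes (lipases, colipase, phospholipase and others) the median was 0.713% of pancreas in parotid, 0.519% in submandibular gland, 0.665% in sublingual gland and 0.853% in liver, and AMY2B, an amylase, was the highest of them in each. For 4 genes of hormones made in the pancreatic islets the medians were 0.587%, 0.748%, 1.58% and 1.07% of pancreas. PPY, whose pancreas median of 12.3 TPM was under that minimum, stood higher, at 3.93%, 1.46%, 15.6% and 4.18%. For 6 liver plasma protein genes, taken against liver, the medians were 0.505% in parotid, 0.553% in submandibular gland, 0.769% in sublingual gland and 0.841% in pancreas, with TTR (transthyretin, which islets are known to make as well) the highest, at 7.52% in pancreas. RBPJL, the 1 of 6 listed acinar transcription factors that reached that minimum, stood at 0.587%, 0.411%, 0.823% and 0.886% of pancreas. Of the factors under it, PTF1A in liver stood at 0.669% of pancreas and NR5A2 at 56.8%. NR5A2 and GATA4 were not called between pancreas and liver, with differences of 0.36 (adjusted p = 0.442, limma) and -0.10 (adjusted p = 0.835, limma). For 5 salivary genes, taken against parotid, the median was 3.77% in pancreas and 5.58% in liver. Of the 5, SMR3B, CST5 and BPIFA2 lay between 3.55 and 4.30% in pancreas and between 4.95 and 5.98% in liver. ZG16B, whose highest level was in sublingual gland, was at 98.5% and 143%. Parotid did not have the highest median of any of the 5, which raises their percentages relative to the lists above. In submandibular gland SMR3B, CST5 and BPIFA2 stood at 202%, 238% and 324% of parotid, and LPO stood at 308% in sublingual gland. Whether the low protease values stand for transcription in these tissues was not tested.

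**Figure D4:**
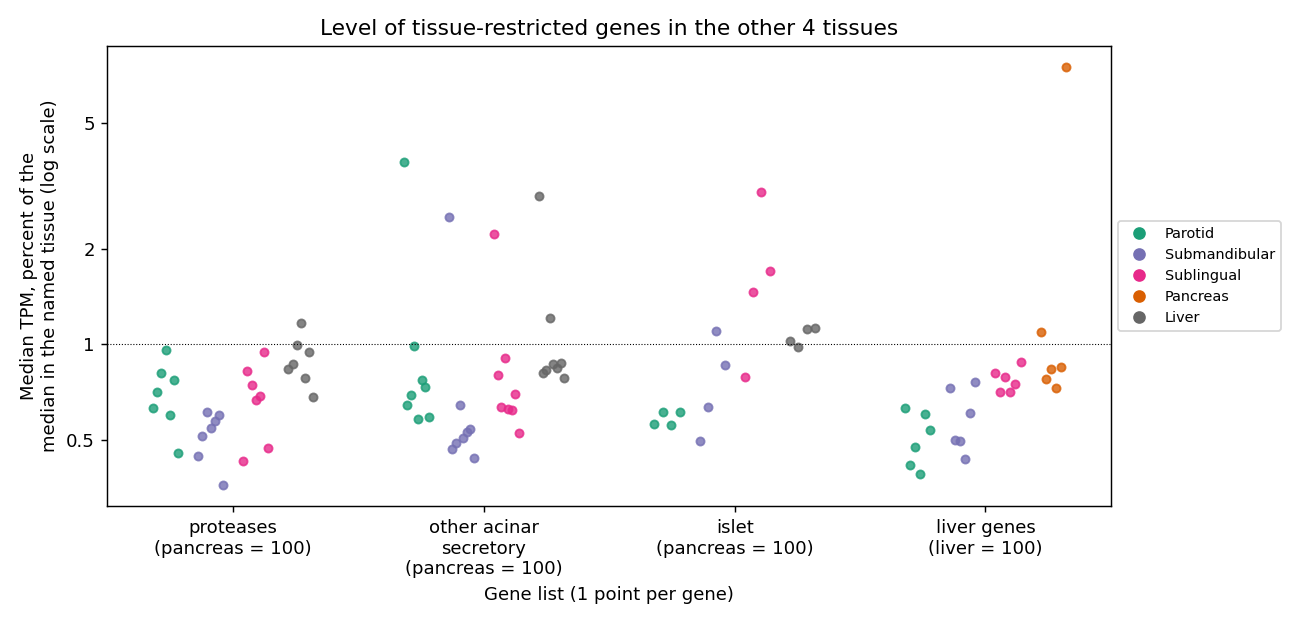
Median TPM in each tissue as a percentage of the median in the tissue named under each list, on a log axis, with 1 point per gene and a dotted line at 1%. The 7 proteases lie between 0.359 and 1.17%, and most points of the other acinar, islet and liver genes lie around the same line, with AMY2B, 3 of the 4 sublingual islet points and TTR in pancreas above it. Genes with a median under 100 TPM in the named tissue and the salivary list are not drawn.

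Not every gene of secretory cells followed that band. BHLHA15 (MIST1), a transcription factor of serous acinar cells in general, had a median of 95.1 TPM in pancreas, with 90.6 TPM for parotid and 80.9 TPM for submandibular gland, and limma gave differences of 0.16 (adjusted p = 0.863) and -0.53 (adjusted p = 0.672). In sublingual gland BHLHA15 was lower than in pancreas by limma, with a difference of -2.68 (adjusted p = 0.00727). KLK1, the tissue kallikrein, stood at 24.8%, 81.5% and 41.8% of its pancreas median in parotid, submandibular and sublingual gland and at 2.22% in liver.

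Within each animal the summed protease level of another tissue was 0.123 to 1.24% of the animal's own pancreas in the 5 animals other than animal 4. In animal 4 it was 35.9% in liver, 51.7% in parotid, 54.2% in sublingual gland and 63.8% in submandibular gland. The submandibular library of animal 4 was the highest of the 6 for PRSS1, CELA3B, CTRC and CTRL. That library was unlike the other 5 submandibular libraries. Its 10 most abundant genes held 11.1% of all TPM, against 73.5 to 78.9%, and its adipose sum was 7840 TPM, against 8.19 to 128 TPM. The part this plays in its protease values was not tested. The liver of animal 4 had the lowest protease sum of the 6 livers, 1043 TPM against 1355 to 3417 TPM. It was the lowest for PRSS1, CELA1 and CELA3B, with 144, 60.7 and 249 TPM.

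The ratio of CELA1 to CELA3B, which does not depend on the total, ordered the animals alike in pancreas and liver at its upper end. In pancreas the ratio was 1.02, 0.916, 0.512, 0.513, 0.395 and 0.889 in animals 1 to 6, and in liver it was 0.933, 0.779, 0.479, 0.244, 0.374 and 0.726. Animals 1, 2 and 6 had the 3 highest ratios in both tissues, in the same order. In parotid the ratio was 0.794, 0.630, 0.434, 0.656, 0.505 and 0.481, in submandibular gland 0.826, 0.778, 0.590, 0.409, 0.557 and 0.513, and in sublingual gland 0.746, 0.446, 0.408, 0.456, 0.286 and 0.489. Animal 1 was the highest in all 5 tissues. Animal 6, behind only animals 1 and 2 in pancreas, was behind 4 animals in parotid and in submandibular gland.

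**Figure D5:**
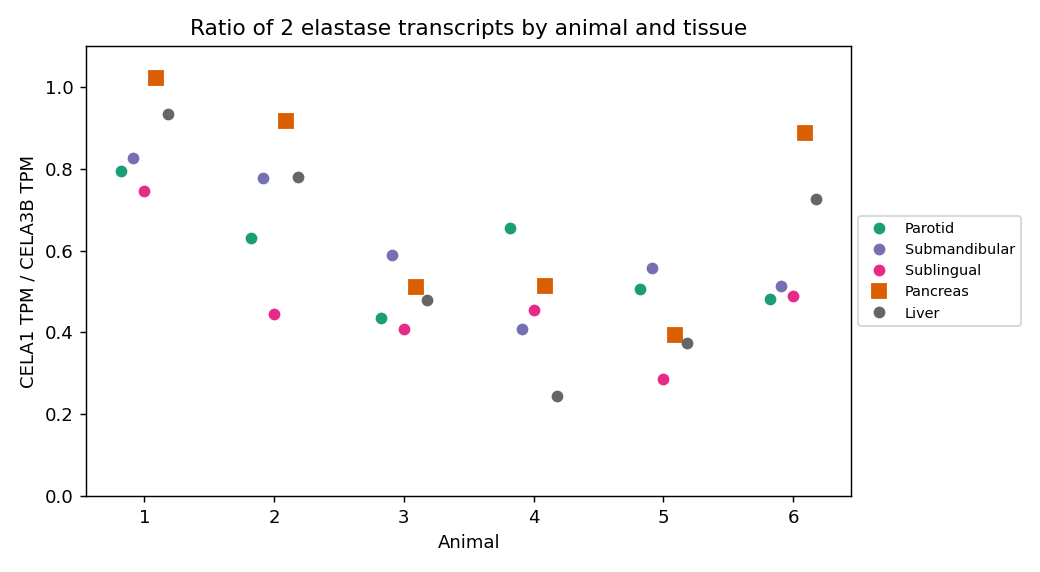
Ratio of CELA1 to CELA3B TPM in each library, by animal, with pancreas as squares and the other tissues as circles. In all 6 animals the liver circle lies under the pancreas square, and animal 1 has the highest ratio of every tissue, from 0.746 to 1.02.

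The low values also moved together within a library. The parotid of animal 3, the one not labelled as a left gland, was the lowest of 6 for all 7 proteases, with 78.7 TPM of PRSS1, 34.0 of CPB1 and 40.8 of CELA1. The sublingual gland of animal 2 was likewise the lowest of 6 for all 7, with 92.7 TPM of PRSS1 and 21.2 of CPB1. The sublingual gland of animal 1 was the highest of 6 for PRSS1, CPA1, CPB1, CELA1, CELA3B and CTRL.

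The other enzymes of the digestive sequence followed the 7. Of a list of 10 further proteases and inhibitors, 6 were in the table and 5 passed the filter on low values. All 5 were called lower in each gland than in pancreas and higher in pancreas than in liver by limma. The shares of all genes called so were 13.6%, 7.46% and 3.51% in parotid, submandibular and sublingual gland, and 6.76% against liver. The median log2 differences of the 5 were -5.89, -6.27, -5.85 and 5.37. PRSS2, the anionic trypsinogen, had a pancreas median of 31511 TPM and CTRB2, a chymotrypsinogen, 4973 TPM. The inhibitor SPINK1 had a median of 8068 TPM and the serpin SERPINI2 438 TPM. Of 10 other acinar secretory genes 9 were called lower in each gland than in pancreas and higher in pancreas than in liver. These counts stand against the same shares of all genes. The median log2 differences over the 10 were -6.06, -6.32, -6.17 and 5.67. SYCN, a granule protein with a pancreas median of 4.96 TPM, was the one not called. TMPRSS15, the enteropeptidase of the duodenum, was at most 0.127 TPM in any library and was not tested.

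Relatives of these enzymes that serve other tissues did not show the pattern as a set, although some were called in its direction. Of 10 carboxypeptidase relatives 6 were tested. In parotid against pancreas 0 were called higher (2.24% of all genes) and 2 lower (13.6%). In submandibular gland 1 was higher (2.25%) and 1 lower (7.46%), and in sublingual gland 0 were higher (10.4%) and 0 lower (3.51%). In pancreas against liver 2 were higher (6.76%) and 2 lower (23.6%). CPB2, the carboxypeptidase of blood plasma made by liver, averaged 207 TPM in liver and 2.11 TPM in pancreas, a log2 difference of -5.81 (adjusted p = 9.00e-15, limma). CPE, the carboxypeptidase that matures hormones in endocrine cells, was higher in pancreas than in liver by 3.10 (adjusted p = 0.000341, limma). CPA3, a mast cell carboxypeptidase that neighbours CPB1, had a pancreas median of 0.0943 TPM.

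Of a list of 13 genes for trypsin-fold and lysosomal proteases of other tissues 12 were tested. The list also held F2RL1, a receptor and not a protease. In parotid against pancreas 1 was called higher (2.24% of all genes) and 5 lower (13.6%). In submandibular gland 1 was higher (2.25%) and 2 lower (7.46%), and in sublingual gland 3 were higher (10.4%) and 1 lower (3.51%). In pancreas against liver 5 were higher (6.76%) and 3 lower (23.6%). F2RL1 was among those lower in parotid and submandibular gland and higher in pancreas than in liver. KLK1 was also higher in pancreas than in liver, by 4.45 (adjusted p = 4.14e-05, limma). PRSS8 (prostasin), an epithelial serine protease, was the one called higher in both parotid and submandibular gland, by 2.02 (adjusted p = 0.00100, limma) and 1.47 (adjusted p = 0.0201, limma) on the log2 scale. HPN (hepsin), a liver membrane protease, was lower in pancreas than in liver by limma, with a difference of -2.77 (adjusted p = 9.95e-06). The lysosomal CTSB, which can activate trypsinogen when both meet in the cell, was lower in pancreas than in liver, with a difference of -2.11 (adjusted p = 0.00631, limma).

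Several genes near the proteases carry only LOC identifiers and were abundant in pancreas. Neighbours come from NCBI RefSeq's genes of the T2T-MMU8v2.0 assembly, where all 7 members were found, and were looked up after the values had been seen. There, LOC114677048, LOC699109 and LOC716882 lie within 3 places of PRSS1, as does PRSS2. Their pancreas medians were 44814, 2452 and 1162 TPM, against medians of 260, 40.4 and 7.19 TPM over the other tissues. LOC694691, near CTRC, had a pancreas median of 16886 TPM. These LOC genes were called lower in each gland than in pancreas and higher in pancreas than in liver by limma. Reads shared between near-identical trypsinogen or elastase copies may have been shared out by rules that no source used here gives, which leaves the single values of PRSS1, PRSS2 and their neighbours uncertain. By contrast, LOC703029, also within 3 places of PRSS1, had a pancreas median of 0.943 TPM and a median of 1.60 TPM over the other tissues. CPA5 and CPA4, which lie next to CPA1, had pancreas medians of 0.841 and 4.15 TPM.

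Over all 30 libraries the genes whose pattern was most like that of the proteases were other acinar enzyme genes. Over the pancreas libraries alone, genes of other kinds were among them. Likeness was the mean Pearson correlation with the 7 members over log2(TPM + 1), among genes with a pancreas mean of at least 10 TPM. Genes with only a LOC identifier were left out of this ranking. It is a description over libraries that share animals and a fixed total. Over all 30 libraries the most alike included PNLIPRP1 (0.992), PNLIPRP2 (0.991), PRSS2 (0.990) and PLA2G1B (0.990), which are lipase-related, protease and phospholipase genes. Over the 6 pancreas libraries they included AQP8 (0.989), PNLIPRP2 (0.989), AQP12A (0.987) and PDIA2 (0.987), of which AQP8 and AQP12A are water channels and PDIA2 a pancreatic protein disulfide isomerase. Over the 5 without animal 4 they included DHRSX (0.732), PNLIP (0.717), PNLIPRP2 (0.716) and SERPINI2 (0.715). PNLIPRP2 was among them in all 3 cases.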

How the data were processed

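The authors deposited a table of TPM values for 21292 genes in 30 libraries. Per the submitters' processing notes the tools included cutadapt, HISAT2, kallisto and featureCounts, with no versions. The table's name points to kallisto. The transcriptome and genome build are not given in the sources used here. Each column sums to the same total, so sequencing depth is unknown, no counting interval is given, and precision rests on the 6 animals per tissue. The number of sample columns left unused was 0.

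From these values log2(TPM + 1) was tested with limma 3.58.1 in R 4.3.3 (tissue and animal as terms, moderated variances with a trend), for genes that reached 1 TPM in 6 or more libraries, which left 13550 and all 7 members. Fold changes are on the log2(TPM + 1) scale, which understates low genes. Two-sided p-values were adjusted by Benjamini-Hochberg within each of 10 tissue pairs, with a threshold of 0.05. Animal is a block because same-numbered libraries come from the same animal. The deviations from tissue means correlated at 0.161 on average within animals and -0.0186 between them. The highest correlation between 2 libraries was 0.984 and 0 pairs were identical. The limma procedure was tested on simulated data.

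All listed members were described, together with the genes of the marker and pathway lists that bear on them, and genes among the 5 most alike by correlation. Values of 1 gene of these lists are not reported here. The members and lists were chosen with earlier results of these data known. Of the gene symbols 19177 were found in the RefSeq table. Alternatives were trimmed-mean scaling, quantile normalisation, other filters and pseudocounts, no trend, no animal block, a fit of the compared tissues alone, and leaving out the pancreas library of animal 4 or each animal in turn.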

Additional observations from a re-analysis of the deposited data

Results flagged for a closer look

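Single libraries stood apart from the other 5 of their tissue by Dixon's test at the 95% level in 11 of 40 sets of 6 libraries. Of these, 8 were the pancreas of animal 4, the lowest for PRSS1 (995 TPM), CPA1 (359), CPB1 (191), CELA1 (279), CELA3B (544), CTRC (392), CTRL (145) and the sum of the 7 (2903). The parotid of animal 3 was the lowest for PRSS1 (78.7 TPM, next 354) and CPB1 (34 TPM, next 138). The parotid of animal 6 was the highest for CTRC (447 TPM, next 187). The sets share libraries, and the sum is made of the other 7 values, so the sets are not independent. The low pancreas of animal 4 was known before this test. The count of 11 is therefore a description and is not set against chance. In 70 comparisons of the tissue differences between the 4 females and 2 males, 0 had every animal of one sex opposite to every animal of the other. Between pancreas and parotid, sublingual gland or liver all 6 animals had the same direction for 7 of 7 genes, which leaves no room for such a split. The count therefore does not show that the sexes are alike.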

How the results depend on the processing

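The 28 tested differences of a protease between pancreas and another tissue kept their direction and stayed past the threshold under each of 15 alternatives, 420 values in all. Without the animal block (no pairing of libraries) the largest limma adjusted p-values were 3.39e-06 for parotid, 2.05e-06 for submandibular and 1.15e-06 for sublingual gland relative to pancreas and 2.99e-06 between pancreas and liver, so the block changed no call there. The median difference was smaller with quantile normalisation, at -4.51 in parotid and -5.02 in submandibular gland, and with trimmed-mean scaling, at -5.39 in parotid and -5.84 in submandibular gland. Trimmed-mean scaling made it larger for sublingual gland, at -6.65, and between pancreas and liver, at 6.19, and quantile normalisation gave -6.18 and 6.02 there. Trimmed-mean scaling moved the median of all genes from -0.484 to 0.0468 in parotid against pancreas and from -0.837 to 0.0210 in parotid against liver. It also raised the mean summed TPM to 2203 in parotid and 1638 in submandibular gland. The cause was not tested. With each animal left out in turn, the number of proteases called ranged from 0 to 1 in parotid against liver, from 0 to 5 in submandibular gland against liver and from 0 to 1 in sublingual gland against liver, and every call came without animal 4: PRSS1 (-1.004, adjusted p = 0.0380) in parotid, CELA1 (-1.07, adjusted p = 0.0280) in sublingual gland, and in submandibular gland CELA1, CELA3B, CPA1, CTRL and PRSS1. Without the pancreas library of animal 4 alone, 1 was called in submandibular gland against liver, CELA3B (-0.89, adjusted p = 0.0306). These calls of gland against liver used limma. The depth behind a TPM value is unknown, so no detection limit can be set for the low values outside the pancreas.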
